A study of Mus musculus with 56 samples.

Results

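The cell cycle genes described here are 52 genes that carry out DNA replication, drive or restrain progression through the cycle, or build the mitotic spindle. They were chosen by name from the 47937 genes listed in the count tables, and all 52 are listed there. They were sorted by the phase in which each is known to act into 21 G1/S genes, 22 G2/M genes, 5 early G1 genes and 4 inhibitors or pocket proteins. All 52 passed the low-count filter in the Odc table, and 51 passed it in the Dohh table, where Cdt1 is listed at 0 in every library. Cdt1, which loads the replicative helicase onto origins, had 277 to 958 counts per library in the Odc table.

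RNA was sequenced from C57BL/6 mouse CD4+ T cells that had been purified by negative selection from spleen and lymph node. All cells were activated with anti-CD3 at 5 µg/mL, anti-CD28 at 2 µg/mL and IL-2 at 100 U/mL, and were taken on day 4 of polarization into TH1, TH2, TH17 or Treg cells. TH1 cells received anti-IL-4, IL-12 and IL-2, and TH2 cells received anti-IFN-γ, IL-4 and IL-2. TH17 cells received anti-IFN-γ and anti-IL-4 with IL-6, TGF-β and IL-1β, and Treg cells received anti-IFN-γ and anti-IL-4 with TGF-β and IL-2. KO cells came from Odc flox/flox or Dohh flox/flox mice crossed with CD4Cre mice, in which Cre recombinase is driven by the CD4 promoter, and WT cells came from mice without Cre. The mice were littermates of both sexes, typically 6 to 10 weeks old, and the labels do not name the animal behind each library. The CD4 promoter is already active in thymocytes that carry both CD4 and CD8, so Cre acts long before activation and also in cells of the CD8 lineage. ODC makes putrescine, the first polyamine, and DOHH completes hypusine, a modified amino acid of the translation factor eIF5A that is made from spermidine. The Odc table holds 16 WT and 15 KO libraries, 4 per genotype and subset except for KO TH2 cells. These have 3, since the counts used here hold no column for their replicate 1. The Dohh table holds 12 WT and 12 KO libraries, 3 per genotype and subset. WT and KO stand for the labels throughout.

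In a dividing cell, D-type cyclins with CDK4 or CDK6 start the phosphorylation of the RB pocket protein, which otherwise holds E2F transcription factors in check. Free E2F factors switch on G1/S genes, among them cyclin E, the MCM helicase and the enzymes that make deoxynucleotides. G2/M genes such as Cdk1, cyclin B and the spindle and centromere genes are switched on later by B-MYB and FOXM1. They are shut off in resting cells by the DREAM complex, which contacts CHR elements of their promoters. CDK inhibitors of the INK4 family (Cdkn2a, Cdkn2c) block CDK4 and CDK6, and p27 (Cdkn1b) blocks CDK2. Naive T cells rest with high p27, and activated T cells divide several times in the days after stimulation.

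Promoter windows were compared between the G1/S and G2/M genes. The words are read from sequence and not from counts, but the genes were chosen with earlier results of these data known. Windows of 250 bases before the start of each gene were read from RefSeq on build GRCm38.p6, and 40 of the 52 genes had an entry. No window was at hand for Aurkb, Ccna2, Ccnd1, Ccnd2, Ccne2, Cdc25c, Foxm1, Gins1, Gins2, Mcm4, Rb1 and Tpx2. Each window was searched on both strands for words of 3 kinds, and words of 1 kind may overlap. The E2F words were TTCGCGC and its variant TTGGCGC, besides the pair TTCCCGC with its near relative TTGCCGC. The CHR words were TTTGAA with the variant TTCGAA, and the last word was CCAAT. An E2F word was found in 9 of 17 G1/S windows (52.9%) and in 3 of 17 G2/M windows (17.6%), against 7.97% of 27025 windows over all genes. A CHR word was found in 3 of 17 G1/S windows (17.6%) and in 7 of 17 G2/M windows (41.2%), against 17.4% over all genes. CCAAT was found in 12 G1/S windows (70.6%) and 16 G2/M windows (94.1%), against 34.5% over all genes. A match is a run of letters and not a known site.

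The windows of 6 genes are shown because their genes mark the contrasts of the counts below. Mcm5 on the plus strand (chr8:75109259-75109508) and Mcm6 on the minus strand (chr1:128359706-128359955) encode subunits of the same helicase, and Mcm5 was called higher in KO cells in 5 of 8 comparisons while Mcm6 was called in none. Cdk1 (chr10:69352913-69353162, minus strand) and Ccnb2 (chr9:70421555-70421804, minus strand) are G2/M genes, the mitotic kinase and a cyclin that activates it. Cdkn2a (chr4:89294620-89294869, minus strand, for 1 of its start sites) and Cdkn1b (chr6:134920151-134920400, plus strand) are inhibitors with opposite changes. Each is written 5′ to 3′ on the gene's strand and ends at the base before the start, and capitals mark the E2F, CHR and CCAAT words on either strand.
Mcm5: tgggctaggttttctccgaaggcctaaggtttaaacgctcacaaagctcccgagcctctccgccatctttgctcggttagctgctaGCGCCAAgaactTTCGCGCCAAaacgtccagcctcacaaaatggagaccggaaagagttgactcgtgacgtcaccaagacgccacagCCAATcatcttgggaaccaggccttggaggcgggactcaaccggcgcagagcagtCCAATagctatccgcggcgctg
Mcm6: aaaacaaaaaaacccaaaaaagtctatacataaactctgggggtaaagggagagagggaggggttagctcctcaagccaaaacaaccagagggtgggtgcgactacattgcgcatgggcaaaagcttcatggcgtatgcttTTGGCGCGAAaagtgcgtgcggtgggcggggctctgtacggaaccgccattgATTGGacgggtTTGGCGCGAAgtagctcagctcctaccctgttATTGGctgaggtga
Cdk1: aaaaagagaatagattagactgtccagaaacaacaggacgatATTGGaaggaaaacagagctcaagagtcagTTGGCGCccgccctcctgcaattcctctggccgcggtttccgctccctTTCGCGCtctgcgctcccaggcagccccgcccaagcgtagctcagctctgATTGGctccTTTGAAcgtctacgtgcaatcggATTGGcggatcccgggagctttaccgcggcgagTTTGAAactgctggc
Ccnb2: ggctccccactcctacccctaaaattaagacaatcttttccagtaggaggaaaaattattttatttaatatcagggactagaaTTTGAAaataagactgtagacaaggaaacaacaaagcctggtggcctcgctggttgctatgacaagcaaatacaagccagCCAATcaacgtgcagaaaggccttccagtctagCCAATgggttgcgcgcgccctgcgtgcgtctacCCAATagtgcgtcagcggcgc
Cdkn2a: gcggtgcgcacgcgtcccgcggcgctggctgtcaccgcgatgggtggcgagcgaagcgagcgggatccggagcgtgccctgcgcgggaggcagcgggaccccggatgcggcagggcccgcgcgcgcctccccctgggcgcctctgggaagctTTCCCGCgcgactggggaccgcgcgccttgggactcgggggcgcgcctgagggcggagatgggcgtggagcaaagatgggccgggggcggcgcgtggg
Cdkn1b: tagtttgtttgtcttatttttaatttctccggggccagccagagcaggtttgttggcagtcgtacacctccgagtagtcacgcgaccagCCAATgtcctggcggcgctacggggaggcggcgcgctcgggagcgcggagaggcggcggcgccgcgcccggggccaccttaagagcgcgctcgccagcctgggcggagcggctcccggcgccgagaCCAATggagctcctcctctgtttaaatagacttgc
In these windows Mcm5 holds 3 E2F words and Mcm6 holds 4. Cdk1 holds 2 E2F and 2 CHR words with 3 CCAAT words, Ccnb2 holds 1 CHR word and 3 CCAAT words, Cdkn2a holds 1 E2F word, and Cdkn1b holds 2 CCAAT words alone.

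Gene counts are given below as CPM, a gene's counts per 1000000 counts of the TMM-scaled library, and fold changes are fitted log2 values with their standard errors from edgeR. A gene was called where its log2 fold change was above 1 in size and its Benjamini-Hochberg adjusted p, over all genes of the table, was below 0.05. Libraries held 5905374 to 9145214 counts in the Odc table and 6572148 to 12576933 in the Dohh table, and a count of 0 allows up to 3 counts, or 0.239 to 0.508 CPM, for counting error only. Counts cover whole genes, including the exons left in place by the deletions. Odc1 was at 424 to 680 CPM in Odc KO and 357 to 860 CPM in WT libraries, so these counts do not check the deletion. Only in TH17 cells was Odc1 lower in every KO library, at 476 to 618 against 670 to 860 CPM. Dohh was at 45.2 to 148 CPM in Dohh KO and 31.5 to 45.9 CPM in WT libraries. A deletion of the whole gene would lower it, so the libraries labelled KO are taken on their labels. Since 275 genes with at least 500 counts in the Odc table have at most 5 in the Dohh table, the tables were not counted alike, and changes rather than levels are compared between them.

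WT replicate 4 of the Odc table stood apart from the other WT libraries in every subset. Its Cdkn1b level was 147 CPM in TH1, 139 in TH2, 143 in TH17 and 141 in Treg cells, below the 213 to 242 CPM of the other WT libraries, and its G1/S genes were nearer to those of KO libraries. Odc KO TH1 replicate 1 and Dohh KO TH1 replicate 3 were each nearer to WT in G1/S genes than the other KO libraries of their group. Results that rest on these libraries are given with and without them. Basophil, mast cell and myeloid markers were also higher in KO than in WT libraries of the same subset. The 8 basophil and mast cell markers summed to 3.47 to 46.5 CPM in Odc WT and 23.0 to 332 CPM in Odc KO libraries, and to 2.14 to 24.1 and 45.2 to 1218 CPM in Dohh WT and KO libraries. The 7 myeloid markers summed to 0.729 to 41.5 CPM in Odc WT and 3.05 to 747 CPM in Odc KO libraries, and to 0.299 to 25.9 and 2.45 to 11482 CPM in Dohh WT and KO libraries. The 6 T cell markers summed to 2258 to 3679 CPM in Odc WT and 1423 to 3054 CPM in Odc KO libraries. In Dohh WT and KO libraries they summed to 3232 to 4048 and 1517 to 3258 CPM. Their mean log2 fold changes over the 8 comparisons were -2.50 for Cd4 and -1.08 for Cd2. Those of Cd3e, Cd3d, Lck and Cd3g were -0.27, -0.17, -0.09 and 0.03. The 5 B cell markers reached 486 CPM in Odc KO against 91.8 CPM in Odc WT libraries. In Dohh KO and WT libraries they reached 51.6 and 51.9 CPM. The 5 erythroid markers reached 30.5 CPM in Dohh KO against 0.488 CPM in Dohh WT libraries. The 4 CD8 T and NK cell markers summed to 151 to 232 CPM in Odc KO Treg against 16.3 to 41.8 CPM in Odc WT Treg libraries. In Odc TH2 cells they were lower in KO, at 7.11 to 10.6 against 12.5 to 20.7 CPM. These 4 markers did not move alike. Mean log2 fold changes over the 8 comparisons were 1.96 for Cd8a, 3.53 for Klrb1c and -0.35 for Cd8b1. Cd8b1 was called higher in 0 comparisons and lower in 2. Ncr1, tested in 4 comparisons, had a mean of 4.21. In WT cells Tbx21 was highest in TH1, Gata3 in TH2 and Foxp3 in Treg cells, as the labels have it, but Foxp3 was at 61.6 to 179 CPM in Dohh KO Treg against 554 to 589 CPM in WT Treg libraries. In bulk RNA, a change in the share of cells of a type or of a phase cannot be told apart from a change in RNA per cell, and the part of other cells in the results was not tested. Labels do not say whether replicates are separate mice, so p-values measure the spread between libraries.

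The first question was whether KO cells differed from WT cells of the same subset across the cycle. G1/S genes were higher in KO cells, most widely in TH1 and TH2 cells of both tables and in Dohh TH17 and Treg cells, while G2/M genes showed no common direction. Cdkn2a was called higher in all 8 comparisons. Cdkn1b had negative log2 fold changes in all 8 and was called lower in 7. In the Odc table, 13 members were called higher and 1 lower in TH1 cells (26.9% of 52, against 21.4% of all 13839 genes tested), and 10 higher and 2 lower in TH2 cells (23.1% against 25.1%). There were 3 higher and 0 lower in TH17 cells (5.77% against 15.6%) and 2 higher and 8 lower in Treg cells (19.2% against 24.0%). In the Dohh table, 19 of 51 were called higher and 2 lower in TH1 cells (41.2%, against 29.1% of all 13897 genes tested), 10 higher and 4 lower in TH2 cells (27.5% against 25.9%), 16 higher and 2 lower in TH17 cells (35.3% against 31.4%) and 25 higher and 1 lower in Treg cells (51.0% against 32.7%). Over the whole list the called share was therefore near or below that of all genes in Odc TH1, TH2, TH17 and Treg cells and in Dohh TH2 and TH17 cells, and the lists below describe how the phases split.

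**Figure D1:**
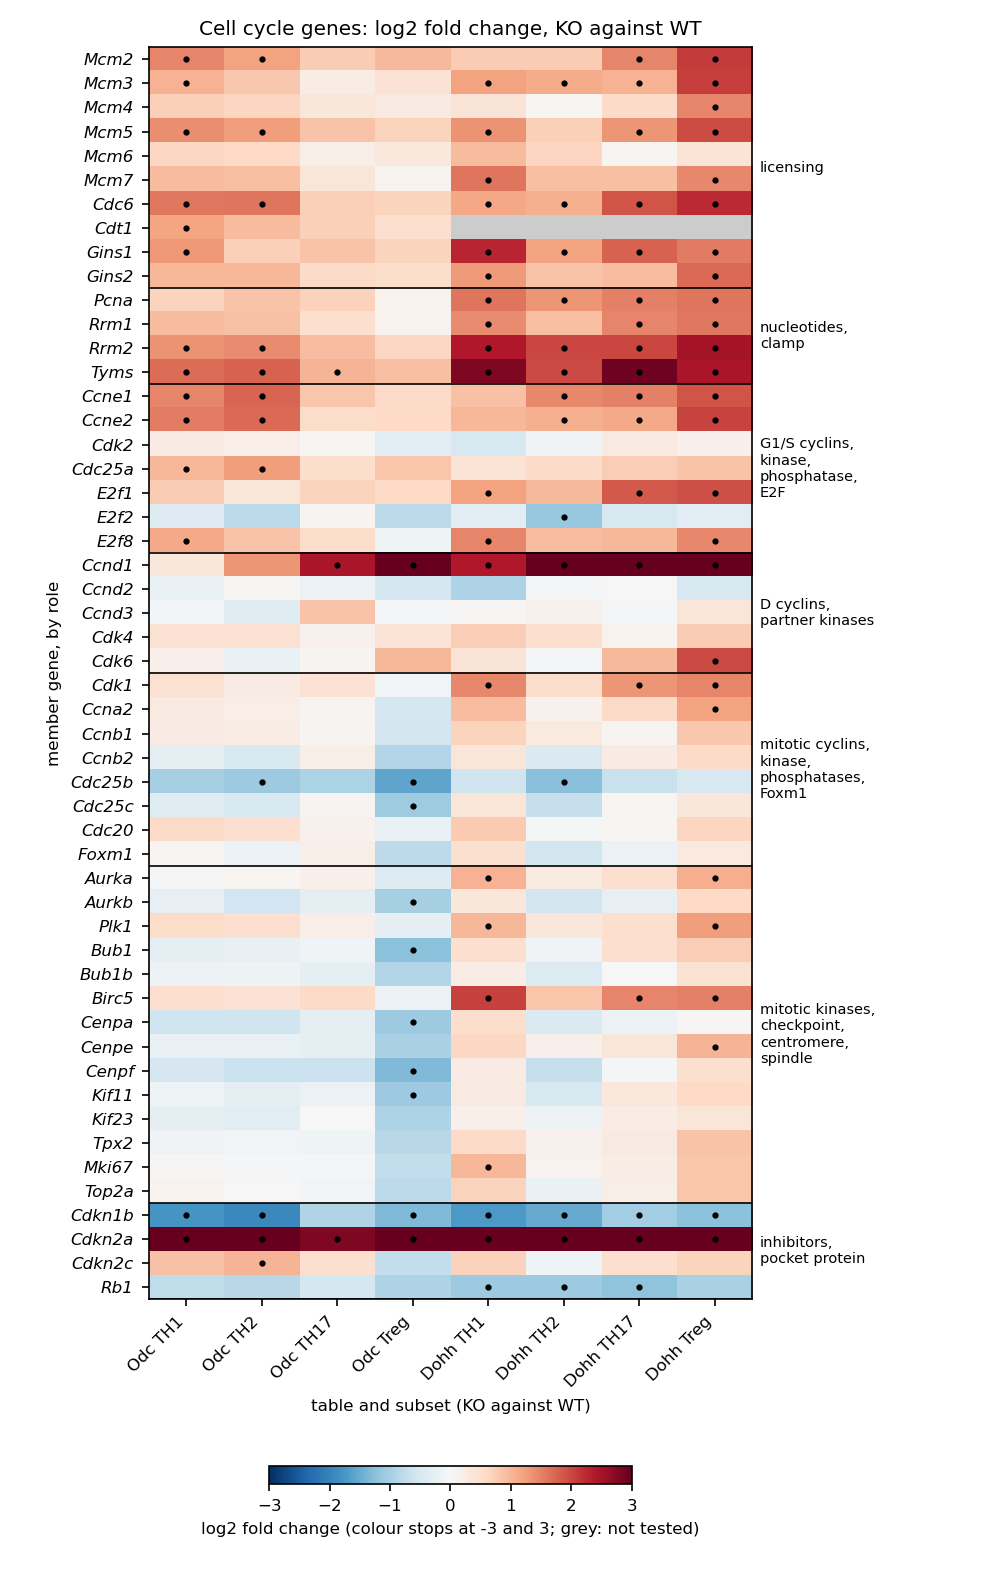
Log2 fold change of KO against WT for the 52 cell cycle genes (rows, grouped by role) in the 8 comparisons (columns). Red is higher and blue lower in KO, black dots mark called genes, and grey marks Cdt1, not tested in the Dohh table. The upper blocks, which hold G1/S genes, are mostly red, while the G2/M blocks are blue in Odc Treg and red in Dohh Treg cells.

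Split by phase, G1/S genes were called higher at a larger share than the whole list in all comparisons but Odc TH17 and Odc Treg. In Odc TH1 cells 12 of 21 G1/S genes were called higher with a median log2 fold change of 1.03 (10.2% of all genes were called higher, with a median over all genes of 0.02), and 0 of 22 G2/M genes were called, with a median of -0.11. Odc TH2 cells had 8 G1/S genes called higher (11.5% of all genes), a median of 0.91, and 1 G2/M gene called lower (13.6% of all genes), a median of -0.17. Odc TH17 cells had 1 G1/S gene called higher (8.35% of all genes), a median of 0.56, and 0 called lower (7.21% of all genes), with a G2/M median of -0.03. In Odc Treg cells no G1/S gene was called, although 18 of 21 had a positive log2 fold change with a median of 0.53, and 7 of 22 G2/M genes were called lower (10.1% of all genes), with all 22 below 0 and a median of -0.85 against 0.07 over all genes.

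Among Dohh cells, 12 of 20 G1/S genes were called higher in TH1 cells (14.8% of all genes), 8 in TH2 cells (14.3%), 12 in TH17 cells (17.3%) and 16 in Treg cells (17.5%), with medians of 1.21, 0.92, 1.22 and 1.64. For the G2/M genes, 5 were called higher in TH1 cells, 2 in TH17 and 6 in Treg cells, with medians of 0.55, 0.22 and 0.69, while TH2 cells had 1 called lower (11.6% of all genes) and a median of -0.13. G2/M genes were therefore above 0 in Dohh Treg cells, 21 of 22, and below 0 in Odc Treg cells, 22 of 22.

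As a measure within each library, the phase balance was taken as the mean log2 CPM of the G2/M genes minus that of the G1/S genes. A library's scaling factor nearly cancels in it, and it is given as a description with no test. In Odc TH1 cells the balance was 1.29, 1.19, 1.38 and 0.52 in WT and 0.36, -0.15, -0.11 and 0.01 in KO libraries. For Odc TH2 cells it was 1.16, 1.10, 1.26 and 0.76 in WT and -0.12, 0.06 and 0.02 in KO libraries. Odc TH17 cells had 0.85, 0.85, 0.81 and 0.36 in WT and 0.19, -0.10, 0.03 and 0.11 in KO libraries. In each of these subsets WT replicate 4 was the lowest WT library, and every KO library lay below it. Odc Treg cells had 1.41, 1.19, 1.38 and 0.49 in WT and -0.12, -0.16, -0.06 and -0.12 in KO libraries, again without overlap.

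The Dohh table showed the same order in each subset. In Dohh TH1 cells the balance was 0.59, 0.20 and 0.50 in WT and -0.08, -0.19 and -0.01 in KO libraries. Dohh TH2 cells had 0.88, 0.79 and 0.93 in WT and -0.09, -0.14 and -0.19 in KO libraries. TH17 and Treg cells had WT values of 1.02 to 1.13 and 0.91 to 1.05, and KO values of -0.06 to 0.22 and -0.03 to 0.27. The shift of the group means was -1.07, -1.09, -0.66 and -1.23 in Odc TH1, TH2, TH17 and Treg cells, and -0.52, -1.01, -0.95 and -0.85 in the same subsets of the Dohh table. With medians over the genes in place of means, the shift was -0.58, -0.49, -0.72 and -1.01 in the Odc table but 0.20, -0.32, -0.45 and -0.00 in the Dohh table, so it turned in Dohh TH1 cells and was near 0 in Dohh Treg cells. The G1/S mean alone was higher in every KO than in every WT library in 7 of 8 comparisons, all but Odc Treg, and the G2/M mean only in Dohh Treg cells.

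**Figure D2:**
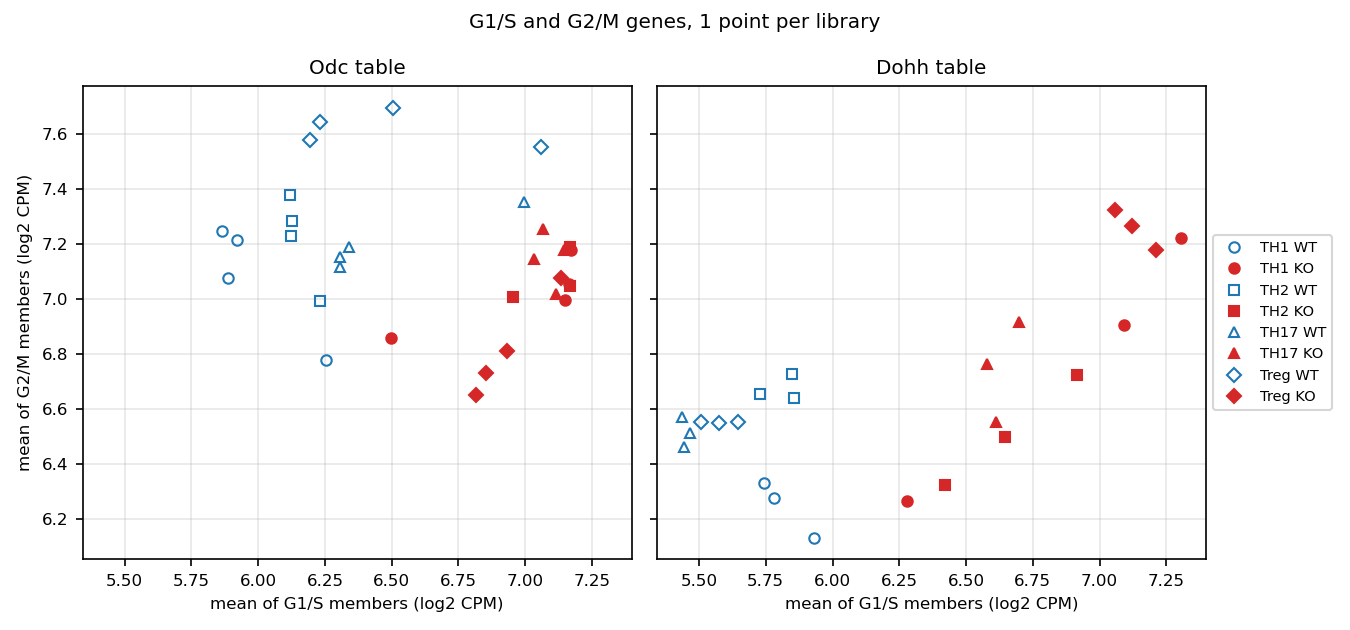
Mean log2 CPM of the G2/M genes (y axis) against that of the G1/S genes (x axis), 1 point per library, with 1 panel per table, a marker shape per subset, open points for WT and filled points for KO. KO libraries lie to the right of WT libraries of their subset except in Odc Treg cells, where WT replicate 4 lies among them, and KO libraries of Odc Treg cells lie lower, at 6.65 to 7.08 against 7.55 to 7.69.

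Licensing and helicase genes load the MCM complex at origins and unwind DNA, and all 10 had positive log2 fold changes in each Odc comparison, as had all 9 tested in each Dohh comparison. Of these, 6, 3, 0 and 0 were called higher in Odc TH1, TH2, TH17 and Treg cells (10.2%, 11.5%, 8.35% and 13.9% of all genes), and 6, 3, 5 and 8 in the same Dohh subsets (14.8%, 14.3%, 17.3% and 17.5% of all genes). Mcm5, a subunit of the helicase ring, was at 125, 129, 123 and 159 CPM in Odc WT TH1 libraries and at 234, 409, 378 and 398 CPM in KO libraries. The groups did not overlap, KO replicate 1 being the lowest KO library and WT replicate 4 the highest WT library. The log2 fold change of Mcm5 was 1.40 ± 0.20 (SE, edgeR adjusted p = 4.6e-06). Mcm5 in Odc Treg cells was at 155, 194, 147 and 315 CPM in WT and 306, 290, 357 and 326 CPM in KO libraries, where WT replicate 4 lay among the KO libraries, and the change of 0.66 ± 0.20 was not called (edgeR adjusted p = 0.0053). Dohh Treg cells had 94.1, 111 and 102 CPM in WT and 404, 450 and 341 CPM in KO libraries, far apart, with a log2 fold change of 1.96 ± 0.25 (edgeR adjusted p = 1.9e-06).

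Mcm2, another ring subunit, was at 77.6, 78.2, 64.7 and 109 CPM in Odc WT TH1 and 152, 256, 237 and 261 CPM in KO libraries, and at 53.4, 58.8 and 60.3 CPM in Dohh WT Treg and 222, 265 and 255 CPM in KO libraries. Both pairs of groups were separate, with log2 fold changes of 1.46 ± 0.25 (edgeR adjusted p = 3.6e-05) and 2.11 ± 0.23 (edgeR adjusted p = 2.3e-07). Mcm2 was called higher in 4 comparisons, Mcm3 and Mcm5 in 5, Mcm7 in 2 and Mcm4 in 1. The Mcm3 call was lost in Odc TH1 cells with no low-count filter and without KO replicate 3 or 4 or any of WT replicates 1, 2 and 3, in Dohh TH1 cells without KO replicate 1, in Dohh TH2 cells without KO replicate 3 or WT replicate 3, and in Dohh TH17 cells without KO replicate 1 or WT replicate 3. Mcm6 had log2 fold changes of 0.05 to 0.95 and was called in none, although the MCM2 to MCM7 proteins form 1 hexamer. Cdc6, which loads that hexamer together with CDT1, was called higher in 6 comparisons, all but Odc TH17 and Odc Treg. Its levels in Dohh TH17 cells were 11.2, 11.9 and 14.8 CPM in WT and 54.7, 48.5 and 35.4 CPM in KO libraries, a log2 fold change of 1.88 ± 0.27 (edgeR adjusted p = 1.0e-05). In Odc TH17 cells Cdc6 was at 34.7, 36.6, 35.6 and 71.9 CPM in WT and 74.3, 69.5, 73.5 and 75.5 CPM in KO libraries, so that WT replicate 4 alone stood with the KO group. Gins1, part of the GINS complex that joins CDC45 and the MCM ring, was called higher in 5 comparisons, with its largest change in Dohh TH1 cells. There it was at 8.03, 6.97 and 9.42 CPM in WT and 39.1, 66.1 and 14.4 CPM in KO libraries, with KO replicate 3 nearest to WT, and the log2 fold change was 2.29 ± 0.34 (edgeR adjusted p = 1.5e-05). Gins2, another GINS subunit, was called higher in Dohh TH1 and Treg cells (1.29 and 1.69). Of its exonic bases 67.3% overlap Gse1, all on the opposite strand. Since the strand setting of the counting is not given, its counts are uncertain. Cdt1 was called higher in Odc TH1 cells (1.18). Of the exonic bases of Mcm7, 12.6% overlap other genes, and the shares for Rb1, Ccna2 and E2f8, described below, are 14.9%, 12.5% and 11.2%.

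The genes of nucleotide supply and the sliding clamp include the 2 G1/S genes with the largest mean log2 fold changes over the 8 comparisons, Tyms (1.94) and Rrm2 (1.65). Rrm1 and Rrm2 encode ribonucleotide reductase, Tyms makes thymidylate, and Pcna is the clamp that holds polymerases on DNA. Tyms was called higher in 7 of 8 comparisons, Rrm2 in 6, Pcna in 4 and Rrm1 in 3, and all 4 genes were called in Dohh TH1, TH17 and Treg cells. The Tyms call in Odc TH17 cells, the only G1/S call there, was lost under DESeq2, with RLE size factors, with no low-count filter, in a fit of those groups alone, in a test against the fold threshold, and without any of WT replicates 1, 2 and 3 or KO replicate 3. Tyms in Dohh TH17 cells was at 10.6, 11.2 and 9.93 CPM in WT and 74.5, 75.9 and 89.4 CPM in KO libraries. This was a wide gap with little spread inside the groups, and the log2 fold change was 2.91 ± 0.32 (edgeR adjusted p = 5.0e-07). In Odc TH2 cells Tyms was at 29.5, 30.4, 25.1 and 31.5 CPM in WT and 104, 92.9 and 103 CPM in KO libraries, a log2 fold change of 1.78 ± 0.27 (edgeR adjusted p = 7.6e-06). Odc Treg cells were the exception, with Tyms at 29.2, 42.1, 30.1 and 65.0 CPM in WT and 68.0, 68.3, 101 and 73.0 CPM in KO libraries. There the groups still did not overlap, WT replicate 4 being just under the lowest KO library, and the change of 0.90 ± 0.25 was not called (edgeR adjusted p = 0.0033).

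Rrm2, the regulated subunit of the reductase, was at 71.2, 84.7 and 93.8 CPM in Dohh WT Treg and 439, 463 and 498 CPM in KO libraries, a log2 fold change of 2.49 ± 0.27 (edgeR adjusted p = 2.8e-07). In Dohh TH1 cells Rrm2 was at 78.6, 98.3 and 77.6 CPM in WT and 614, 509 and 214 CPM in KO libraries, where KO replicate 3 was again the lowest of its group but above all WT libraries (2.39 ± 0.27, edgeR adjusted p = 7.7e-07). Odc TH1 cells had 189, 157, 173 and 182 CPM in WT and 272, 498, 526 and 481 CPM in KO libraries for Rrm2, with KO replicate 1 the lowest KO library (1.34 ± 0.20, edgeR adjusted p = 9.0e-06). Pcna was called in every Dohh comparison, with log2 fold changes of 1.32 to 1.61, and in no Odc comparison, where they were 0.11 to 0.86. In Dohh TH17 cells Pcna was at 92.1, 102 and 111 CPM in WT and 303, 294 and 273 CPM in KO libraries (1.51 ± 0.16, edgeR adjusted p = 3.1e-07). Odc Treg cells had Pcna at 280, 363, 259 and 466 CPM in WT and 371, 328, 436 and 346 CPM in KO libraries, which overlap throughout (0.11 ± 0.17, edgeR adjusted p = 0.57).

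Among the G1/S cyclins, kinase, phosphatase and E2F factors, each E cyclin was called higher in 5 comparisons and their kinase in none. Ccne1 and Ccne2 encode cyclins E1 and E2. Ccne1 in Odc TH2 cells was at 21.7, 21.6, 21.1 and 30.9 CPM in WT and 90.5, 69.4 and 80.2 CPM in KO libraries, clearly apart, with a log2 fold change of 1.75 ± 0.27 (edgeR adjusted p = 9.1e-06). Ccne1 in Dohh Treg cells was at 28.3, 27.0 and 33.2 CPM in WT and 110, 110 and 109 CPM in KO libraries (1.89 ± 0.23, edgeR adjusted p = 1.0e-06). Ccne2 in Dohh Treg cells was at 7.90, 7.29 and 7.67 CPM in WT and 27.2, 26.9 and 40.0 CPM in KO libraries (2.04 ± 0.22, edgeR adjusted p = 2.4e-07). In Odc TH17 cells Ccne2 was at 18.3, 15.2, 14.4 and 39.9 CPM in WT and 33.8, 40.0, 26.3 and 28.2 CPM in KO libraries, where WT replicate 4 was the highest WT library and within the KO range (0.55 ± 0.33, edgeR adjusted p = 0.17). Of the exonic bases of Ccne2, 17.4% overlap Ints8.

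Cdk2, the kinase that cyclin E activates, had log2 fold changes of -0.48 to 0.27, with an adjusted p below 0.05 in 3 of the 8 comparisons, and stayed under the fold threshold in each. Cdc25a, the phosphatase that removes its inhibitory phosphates, was called higher in Odc TH1 (1.0) and Odc TH2 cells (1.25). The TH1 call of Cdc25a was lost under the same 5 analysis settings as that of Tyms and without any of KO replicates 2, 3 and 4 or WT replicates 1, 2 and 3. E2f1, an activating E2F factor, was called higher in Dohh TH1, TH17 and Treg cells. Its levels in Dohh Treg cells were 14.0, 17.1 and 18.7 CPM in WT and 54.7, 59.4 and 77.3 CPM in KO libraries, a log2 fold change of 1.94 ± 0.22 (edgeR adjusted p = 3.5e-07). In Odc TH1 cells E2f1 was at 34.8, 32.0, 33.4 and 39.8 CPM in WT and 51.2, 59.6, 67.3 and 61.2 CPM in KO libraries, separate but smaller in change (0.77 ± 0.14, edgeR adjusted p = 6.6e-05). E2f8, a repressor that acts late in S phase, was called higher in Odc TH1 (1.15), Dohh TH1 (1.46) and Dohh Treg cells (1.44). E2f2, a further activating E2F, had negative values in 7 of 8 comparisons and was called lower in Dohh TH2 cells (-1.15), which made it the G1/S gene that moved against its list.

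**Figure D3:**
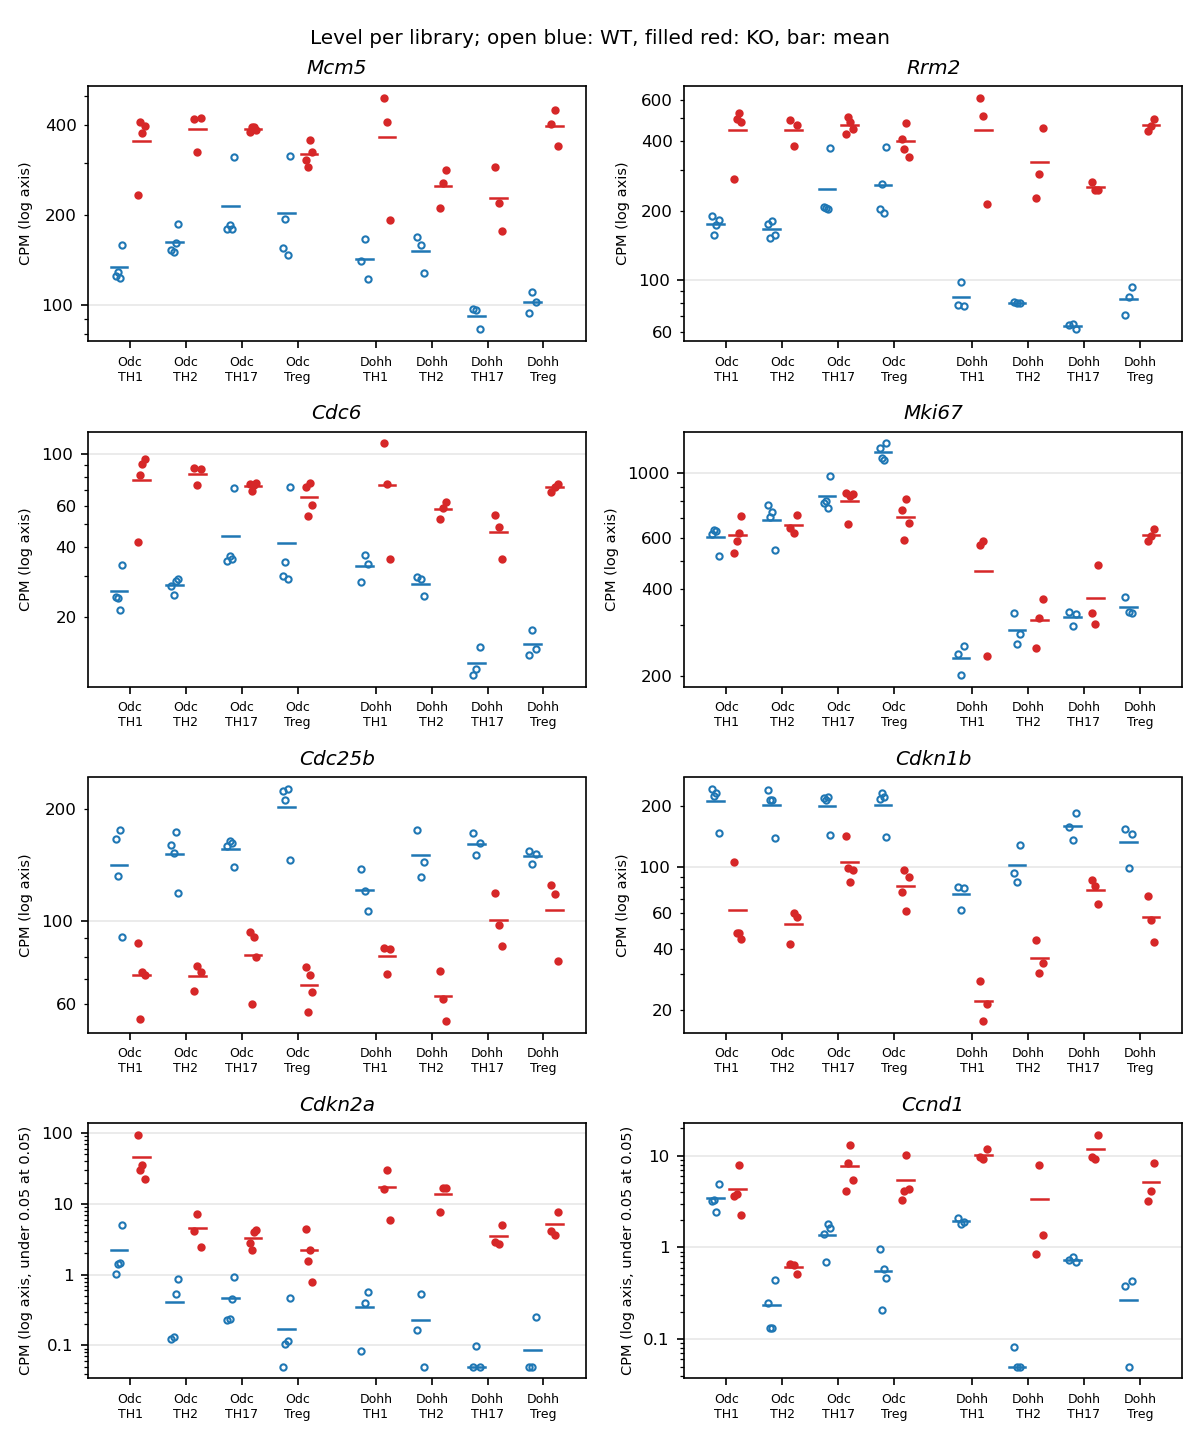
CPM per library (y axis, log scale) of 8 cell cycle genes in each table and subset (x axis), with WT open and KO filled, and a bar at each group mean. Group means of Mcm5, Rrm2 and Cdc6 are higher in KO, those of Cdc25b and Cdkn1b lower, and Mki67 is lower in Odc KO Treg but higher in Dohh KO Treg libraries. Values of Cdkn2a and Ccnd1 under 0.05 CPM are drawn at 0.05.

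D-type cyclins and their partner kinases, the early G1 genes, split by member. Ccnd1 (cyclin D1) was called higher in KO cells in 6 comparisons, all but Odc TH1 and Odc TH2, from low levels. In Dohh TH17 cells Ccnd1 was at 0.727, 0.780 and 0.693 CPM in WT and 9.74, 9.24 and 16.9 CPM in KO libraries, a log2 fold change of 4.00 ± 0.66 (edgeR adjusted p = 4.7e-05). Odc Treg cells had Ccnd1 at 0.953, 0.207, 0.576 and 0.466 CPM in WT and 3.30, 4.10, 10.1 and 4.30 CPM in KO libraries (3.27 ± 0.48, edgeR adjusted p = 2.0e-06). In Dohh TH2 cells Ccnd1 had 1, 0 and 0 counts in WT and 8, 77 and 13 counts in KO libraries, with KO replicate 2 far above the others, and the call was lost in a fit of those groups alone. Of its exonic bases, 23.4% overlap a neighbouring gene. Over the 8 KO groups of 3 or 4 libraries, the library with the highest Ccnd1 was also that with the highest sum of basophil and mast cell markers in 7 groups, of myeloid markers in 6, of CD8 T and NK cell markers in 5 and of B cell markers in 1. The part of other cells in the Ccnd1 counts was not tested.

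Ccnd2 and Ccnd3, the D cyclins that T cells use most, were called in none of the 8 comparisons. Ccnd2 had log2 fold changes of -0.92 to 0.05, with 614, 640 and 635 CPM in Dohh WT TH1 and 311, 296 and 393 CPM in KO libraries, a separation that stayed under the fold threshold (-0.92 ± 0.17, edgeR adjusted p = 0.00018). Without Dohh KO TH1 replicate 3, Ccnd2 was called lower in that comparison. Ccnd3 had log2 fold changes of -0.37 to 0.36 except in Odc TH17 cells, where it was at 283, 328, 278 and 352 CPM in WT and 584, 563, 518 and 581 CPM in KO libraries (0.86 ± 0.09, edgeR adjusted p = 1.4e-07). The change of Ccnd3 in Dohh TH17 cells was -0.06, and the difference between the tables was -0.85 ± 0.19 (edgeR adjusted p = 0.00068), under the fold threshold.

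Of Cdk4 and Cdk6, the kinases that D cyclins activate, only Cdk6 was called, in Dohh Treg cells. Cdk4 had log2 fold changes of 0.11 to 0.75, highest in Dohh Treg (0.75) and Dohh TH1 cells (0.73) and lowest in TH17 cells of both tables, and 19.7% of its exonic bases overlap Tspan31. Cdk6 was at 53.3, 42.7 and 58.0 CPM in Dohh WT Treg and 181, 198 and 233 CPM in KO libraries, far apart (1.99 ± 0.17, edgeR adjusted p = 1.0e-08). Cdk6 in Odc Treg cells was at 120, 121, 112 and 212 CPM in WT and 298, 288, 264 and 273 CPM in KO libraries, with WT replicate 4 between the groups, and 0.99 ± 0.14 was just under the threshold (edgeR adjusted p = 9.1e-07). Without that library in every subset Cdk6 was called higher there. The same call was gained without KO replicate 3 or 4 and with the replicate number as a block.

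**Figure D4:**
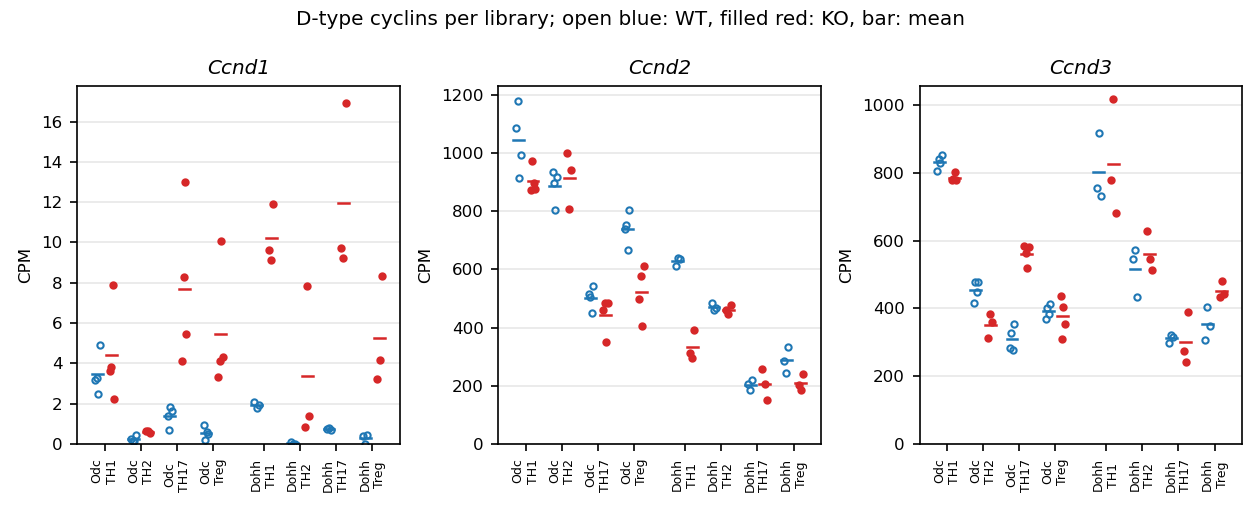
CPM per library (y axis, linear from 0) of the D-type cyclins Ccnd1, Ccnd2 and Ccnd3 in each table and subset (x axis), with WT open, KO filled and a bar at each group mean. Ccnd2 and Ccnd3 are highest in WT TH1 cells and lowest in WT TH17 cells, and Ccnd3 of Odc KO TH17 cells stands at 518 to 584 CPM above WT at 278 to 352 CPM.

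Among the mitotic cyclins, their kinase, phosphatases and Foxm1, the kinase Cdk1 was called higher in Dohh cells alone. Its log2 fold change was positive in 7 of 8 comparisons, with an edgeR adjusted p below 0.05 in 6. The phosphatase Cdc25b was lower in all 8 comparisons, each with an edgeR adjusted p below 0.05, and was called in 3. Cdk1 drives entry into mitosis and was called higher in Dohh TH1, TH17 and Treg cells. In Dohh Treg cells Cdk1 was at 67.0, 85.8 and 68.1 CPM in WT and 189, 184 and 232 CPM in KO libraries, without overlap (1.45 ± 0.19, edgeR adjusted p = 3.4e-06). In Odc Treg cells the same gene was at 136, 162, 141 and 150 CPM in WT and 134, 111, 182 and 127 CPM in KO libraries, which overlap (-0.09 ± 0.13, edgeR adjusted p = 0.58). Cdc25b, a phosphatase that activates Cdk1 with cyclin B, had negative log2 fold changes in all 8 comparisons, from -0.48 to -1.59, and was called lower in Odc TH2, Odc Treg and Dohh TH2 cells. Its levels in Odc Treg cells were 224, 212, 226 and 146 CPM in WT and 75.3, 57.0, 71.7 and 64.4 CPM in KO libraries, with WT replicate 4 the lowest WT library but well above the highest KO library (-1.59 ± 0.18, edgeR adjusted p = 3.8e-08). In Dohh TH2 cells Cdc25b was at 175, 131 and 144 CPM in WT and 73.2, 61.5 and 53.9 CPM in KO libraries (-1.26 ± 0.18, edgeR adjusted p = 1.1e-05).

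The cyclins of mitosis followed the split between Odc and Dohh Treg cells. Ccna2 (cyclin A2, active in S and G2) was at 302, 335, 279 and 335 CPM in Odc WT Treg and 193, 215, 252 and 206 CPM in KO libraries, lower in every KO library but under the fold threshold (-0.53 ± 0.12, edgeR adjusted p = 0.00062). In Dohh Treg cells Ccna2 was at 126, 124 and 141 CPM in WT and 302, 291 and 313 CPM in KO libraries, and was called higher (1.21 ± 0.19, edgeR adjusted p = 1.7e-05). Ccnb2 (cyclin B2) was at 158, 189, 159 and 160 CPM in Odc WT Treg and 84.8, 79.0, 114 and 87.7 CPM in KO libraries, again apart (-0.87 ± 0.12, edgeR adjusted p = 5.7e-07). In Dohh Treg cells Ccnb2 was at 129, 141 and 127 CPM in WT and 227, 191 and 170 CPM in KO libraries, with a change of the other sign (0.57 ± 0.18, edgeR adjusted p = 0.011). Ccnb1 (cyclin B1) had changes of -0.55 in Odc Treg and 0.80 in Dohh Treg cells and was called in none. Foxm1, the factor that switches on G2/M genes, had log2 fold changes of -0.79 to 0.48, and Cdc20, which directs the breakdown of cyclin B, had -0.19 to 0.78, and neither was called. Cdc25c, a relative of Cdc25b, was called lower in Odc Treg cells (-1.06), a call lost without KO replicate 2, KO replicate 4 or WT replicate 1, and 12.7% of its exonic bases overlap another gene.

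The mitotic kinases, checkpoint, centromere and spindle genes had opposite signs in the Treg comparisons of the tables. In Odc Treg cells all 14 had negative log2 fold changes with a median of -0.91, and Cenpf, Bub1, Cenpa, Kif11 and Aurkb were called lower. In Dohh Treg cells all 14 had positive values with a median of 0.78, and Birc5, Plk1, Aurka and Cenpe were called higher. The Cenpe call was lost under the same 5 settings as that of Tyms in Odc TH17 cells and without KO replicate 2, KO replicate 3 or WT replicate 2, and the Aurka call without KO replicate 3. Cenpf, a large kinetochore protein, was at 216, 198, 181 and 156 CPM in Odc WT Treg and 72.1, 66.9, 84.9 and 77.0 CPM in KO libraries, with no overlap (-1.32 ± 0.15, edgeR adjusted p = 5.7e-08). Cenpf in Dohh Treg cells was at 57.0, 45.2 and 56.8 CPM in WT and 81.0, 69.9 and 72.1 CPM in KO libraries, higher in each but not called (0.48 ± 0.18, edgeR adjusted p = 0.027). The other genes called lower in Odc Treg cells were Bub1 (-1.23), a kinase of the spindle checkpoint, Cenpa (-1.09), the histone variant of centromeres, Kif11 (-1.08), the motor that separates spindle poles, and Aurkb (-1.01), the kinase of the chromosomal passenger complex, whose call was lost without KO replicate 2 or 4 or WT replicate 2 or 3.

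Mki67, which encodes the proliferation marker Ki-67, was at 1227, 1133, 1108 and 1268 CPM in Odc WT Treg and 746, 587, 817 and 672 CPM in KO libraries. All KO libraries were below all WT libraries, but the change of -0.75 ± 0.12 was under the fold threshold (edgeR adjusted p = 6.0e-06). In the other Odc comparisons Mki67 was between -0.06 and 0.03. In Dohh TH1 cells it was at 238, 201 and 254 CPM in WT and 568, 584 and 234 CPM in KO libraries, where KO replicate 3 fell within the WT range. The call at 1.0 ± 0.25 (edgeR adjusted p = 0.0021) was lost without KO replicate 1, KO replicate 2 or WT replicate 2. It was also lost with no low-count filter, in a fit of those groups alone and in a test against the fold threshold. In Dohh Treg cells Mki67 was at 374, 331 and 329 CPM in WT and 585, 606 and 645 CPM in KO libraries (0.83 ± 0.24, edgeR adjusted p = 0.0072).

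Birc5 (survivin, a partner of Aurora B) had the largest increase of the G2/M genes. It was at 48.4, 50.9 and 59.4 CPM in Dohh WT TH1 and 222, 343 and 91.2 CPM in KO libraries, all above WT with KO replicate 3 the nearest (2.05 ± 0.31, edgeR adjusted p = 2.0e-05). Birc5 in Dohh Treg cells was at 71.9, 88.9 and 78.1 CPM in WT and 240, 210 and 231 CPM in KO libraries (1.51 ± 0.30, edgeR adjusted p = 0.0003), and in Odc Treg cells at 148, 167, 150 and 167 CPM in WT and 145, 116, 185 and 116 CPM in KO libraries (-0.17 ± 0.13, edgeR adjusted p = 0.24). Plk1, a kinase of mitotic entry and exit, was at 72.4, 82.8 and 78.7 CPM in Dohh WT Treg and 183, 187 and 186 CPM in KO libraries, a tight separation (1.25 ± 0.28, edgeR adjusted p = 0.00082). In Dohh TH1 cells Plk1 was at 64.8, 65.4 and 49.0 CPM in WT and 181, 130 and 48.4 CPM in KO libraries, with KO replicate 3 at the WT level (1.0 ± 0.28, edgeR adjusted p = 0.0052), and that call was lost without KO replicate 1 or 2 or WT replicate 3, with the replicate number as a block, with no low-count filter and in a fit of those groups alone. Top2a, the topoisomerase of mitotic chromosomes, and Tpx2, the activator of Aurora A, were called in none, at -0.79 and -0.83 in Odc Treg and 0.82 and 0.86 in Dohh Treg cells. Bub1b, a checkpoint protein, and Kif23, a motor of cytokinesis, were also called in none.

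The counts of called members moved with single libraries in both tables. Without KO replicate 3, 27 members were called in Dohh TH1 cells in place of 21, with Ccna2, Ccne1, Ccne2, Cdc20 and Mcm6 added as higher and Ccnd2 as lower. Without KO replicate 1 there were 14, with Aurka, Cdc6, E2f8, Mcm3, Mki67, Plk1 and Rb1 lost. Without KO replicate 2, Aurka, Gins2, Mki67, Plk1 and Rb1 were lost there, and without WT replicate 3 Aurka and Plk1. The Aurka call in TH1 cells was also lost in a fit of those groups alone. Among the other Dohh calls, Ccne2 in TH2 cells was lost without KO replicate 3 and Cdc6 in TH2 cells without WT replicate 3. Without Odc KO TH1 replicate 1 there were 18 called members in Odc TH1 cells in place of 14, with Gins2, Mcm7 and Rrm1 added as higher and Cdc25b as lower. In the Odc table, leaving out WT replicate 4 in all subsets gave 17 called members in TH1 cells in place of 14, and 12 in TH2 cells, where Cdkn2c was lost and Gins2 added. In Odc TH17 cells it gave 12 in place of 3, with Ccne1, Ccne2, Cdc6, Gins1, Mcm2, Mcm5 and Rrm2 added as higher and Cdc25b and Cdkn1b as lower. In Odc Treg cells it gave 17 in place of 10, with 8 higher and 9 lower, and Ccne2, Cdc25a, Cdc6, Cdk6, Mcm2, Tyms and Rb1 were added. More G1/S genes were thus called in Odc TH17 and Treg cells without WT replicate 4. The G2/M genes called lower in Odc Treg cells stayed called without it. The shares of all genes called in fits without single libraries, here and below, are not given. These counts of members therefore cannot be set against them. In a test against the fold threshold (glmTreat), 3 of 14, 4 of 12, 1 of 3 and 4 of 10 calls were kept in Odc TH1, TH2, TH17 and Treg cells, and 11 of 21, 5 of 14, 11 of 18 and 18 of 26 in the same Dohh subsets. That test lost Aurka, Cdc6, E2f1, E2f8, Gins2, Mcm3, Mcm5, Mki67, Plk1 and Rb1 in Dohh TH1 cells. In Odc Treg cells it lost Aurkb, Bub1, Cdc25c, Cdkn1b, Cenpa and Kif11. Mcm3 and Rb1 were among those lost in Dohh TH2 and TH17 cells.

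Inhibitors and the pocket protein changed in opposite directions. Cdkn2a, whose counts add the transcripts of p16 (INK4A) and p19 (ARF), was called higher in all 8 comparisons from low levels in WT libraries. In Odc TH1 cells it was at 1.01, 1.42, 1.45 and 5.03 CPM in WT and 94.7, 29.8, 36.0 and 22.7 CPM in KO libraries, with WT replicate 4 the highest WT library (4.35 ± 0.52, edgeR adjusted p = 7.2e-07). Dohh TH1 cells had 0.0828, 0.398 and 0.561 CPM in WT and 16.3, 30.1 and 5.85 CPM in KO libraries (5.66 ± 0.75, edgeR adjusted p = 5.1e-06). In Odc Treg cells Cdkn2a was at 0, 0.103, 0.115 and 0.466 CPM in WT and 4.36, 1.57, 2.20 and 0.782 CPM in KO libraries, still without overlap. The Odc Treg call was lost in a fit of those groups alone, and the Odc TH17 call in the test against the fold threshold. Against the floor of 3 counts per library it was at least 12.1-fold higher in Dohh TH17 and at least 18.3-fold higher in Dohh Treg cells, where WT libraries had at most 1 and 3 counts. In Odc KO TH1 libraries the myeloid markers summed to 4.10 to 10.7 CPM and the basophil and mast cell markers to 23.0 to 183 CPM. In Dohh KO TH1 libraries these sums were 2.45 to 217 CPM and 58.3 to 387 CPM. Each of these sums was above those of the WT TH1 libraries of its table. B cell markers summed to 90.3 to 319 CPM in Odc KO against 6.54 to 38.2 CPM in Odc WT TH1 libraries, and CD8 T and NK cell markers to 14.8 to 41.5 against 8.68 to 34.3 CPM. Over the 8 KO groups, the library with the highest Cdkn2a was also that with the highest sum of myeloid markers in 5 groups, of basophil and mast cell markers in 4, and of B cell and of CD8 T and NK cell markers in 3 each. The part of these cells in the Cdkn2a levels was not tested.

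Cdkn1b (p27), which holds resting T cells out of the cycle, was called lower in 7 of 8 comparisons. The call in Dohh TH17 cells was lost without KO replicate 3 or WT replicate 3, in a fit of those groups alone and in a test against the fold threshold. In Odc TH1 cells it was at 242, 224, 230 and 147 CPM in WT and 107, 47.9, 47.7 and 44.5 CPM in KO libraries, where the lowest WT library (replicate 4) and the highest KO library (replicate 1) still left a gap (-1.77 ± 0.25, edgeR adjusted p = 4.8e-06). Odc TH17 cells had 219, 214, 222 and 143 CPM in WT and 143, 98.9, 85.2 and 96.5 CPM in KO libraries, and the change of -0.91 ± 0.24 was not called (edgeR adjusted p = 0.0036). In Dohh TH1 cells Cdkn1b was at 80.1, 62.0 and 79.0 CPM in WT and 27.6, 17.7 and 21.5 CPM in KO libraries (-1.72 ± 0.23, edgeR adjusted p = 6.1e-06). Dohh Treg cells had 154, 99.1 and 145 CPM in WT and 72.5, 55.4 and 43.0 CPM in KO libraries, again lower in each (-1.22 ± 0.22, edgeR adjusted p = 0.00013).

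Rb1, which encodes the pocket protein RB, was negative in all 8 comparisons and called lower in Dohh TH1 (-1.08), TH2 (-1.10) and TH17 cells (-1.20). The TH1 call was lost without KO replicate 1, KO replicate 2 or WT replicate 1 and in a fit of those groups alone, the TH2 call without WT replicate 3, and the TH17 call without KO replicate 3. In Dohh TH2 cells Rb1 was at 58.8, 53.8 and 69.4 CPM in WT and 26.8, 30.7 and 27.4 CPM in KO libraries, without overlap (edgeR adjusted p = 0.005). Rb1 in Odc Treg cells was at 106, 96.4, 108 and 73.4 CPM in WT and 40.8, 52.8, 41.2 and 66.5 CPM in KO libraries (-0.93 ± 0.16, edgeR adjusted p = 2.3e-05). Cdkn2c (p18, an INK4 inhibitor) was called higher in Odc TH2 cells alone (1.02), and it was -0.74 in Odc Treg cells. The TH2 call of Cdkn2c was lost under DESeq2, with RLE size factors, with no low-count filter, in a fit of those groups alone, in a test against the fold threshold, and without any of KO replicates 2 and 4 or WT replicates 2 and 4.

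The second question was how the members differ between subsets of 1 genotype. A member was called there where an F test over the 4 subset means had an adjusted p below 0.05 and the highest and lowest fitted levels differed by more than 1 on the log2 scale. In WT cells 9 of 52 members were called in the Odc table (33.2% of all genes were) and 9 of 51 in the Dohh table (26.4% of all genes), below the share of all genes in both. None of the 22 G2/M genes was among them in either table, a rule that leaves out differences under the fold threshold. The G2/M mean was 7.55 to 7.69 log2 CPM in Odc WT Treg libraries, above the 6.78 to 7.38 of the other Odc WT libraries. In the Dohh table it was 6.55 in WT Treg libraries, within the 6.13 to 6.73 of the other WT libraries. Ccnd1, Ccnd2, Ccnd3, Cdk6 and Cdkn2c were called in both tables. In KO cells 4 members were called in the Odc table (Ccnd1, Ccnd2, Ccnd3 and Cdkn2a, against 27.2% of all genes) and 10 in the Dohh table (25.3% of all genes), or 22 without KO replicate 3. No G1/S gene differed in KO cells by this rule in either table, while in WT cells Ccne2, E2f8 and Mcm3 did in the Odc table and Ccne1, Cdc6 and Mcm2 in the Dohh table.

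The D cyclins set TH1 and TH17 cells apart. Ccnd2 was at 913 to 1180 CPM in Odc WT TH1 cells, 805 to 934 in TH2, 666 to 803 in Treg and 449 to 544 in TH17 cells, and TH1 and TH2 cells overlapped in this order. TH17 cells were lower than TH1 cells by a log2 difference of -1.05 ± 0.11 in the Odc table (edgeR adjusted p = 3.1e-08) and -1.63 ± 0.17 in the Dohh table (edgeR adjusted p = 5.1e-07). Ccnd3 was lower in WT TH17 than in WT TH1 cells by -1.42 ± 0.09 (edgeR adjusted p = 1.6e-12) and -1.36 ± 0.19 (edgeR adjusted p = 1.3e-05) in the Odc and Dohh tables. In Odc KO cells that difference of Ccnd3 was -0.49 ± 0.09, and in Dohh KO cells -1.46 ± 0.19. Ccnd1 was lowest in WT TH2 cells, with 2, 1, 1 and 3 counts in the Odc table against 22, 23, 17 and 33 counts in WT TH1 libraries, and no size is given since the TH2 counts are at or under the floor. The difference of Ccnd1 between WT Treg and WT TH2 cells of the Odc table did not pass (edgeR adjusted p = 0.18).

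In the Odc table WT Treg cells had the lowest Cdk6 and the highest Cdkn2c of the WT subsets. Cdk6 was at 112 to 212 CPM in Odc WT Treg libraries against 300 to 443 CPM in the other WT libraries of that table, with log2 differences of -1.18 to -1.44 from the other subsets. In the Dohh table WT TH17 and Treg cells were both low, at 42.7 to 70.0 CPM against 205 to 313 CPM in TH1 and TH2 cells. The difference between those lower subsets did not pass (-0.43 ± 0.17, edgeR adjusted p = 0.11). Cdkn2c, which blocks CDK6, was higher in WT Treg than in WT TH1 cells by 1.80 ± 0.14 in the Odc table (edgeR adjusted p = 3.8e-11) and 1.04 ± 0.29 in the Dohh table (edgeR adjusted p = 0.0096). In Odc KO cells the same difference of Cdkn2c was 0.18 ± 0.14 (edgeR adjusted p = 0.32), and in Dohh KO cells it was 1.0 ± 0.28 (edgeR adjusted p = 0.019). WT TH17 and WT Treg libraries of the Dohh table overlapped in Cdkn2c, with 164, 158 and 175 against 305, 158 and 322 counts.

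Whether the change from WT to KO itself differed between subsets was asked with an interaction term of genotype by subset, called at an adjusted p below 0.05. For Odc cells 31 of 52 members were called (34.8% of all genes), of which 19 were G2/M and 8 G1/S genes, and for Dohh cells 15 of 51 (17.9% of all genes), of which 8 were G2/M and 5 G1/S genes. These counts rest on few libraries. Libraries of 1 genotype with the same replicate number often deviated together across subsets. Neither this test nor the F tests between subsets take that into account. The Odc count was 12 without replicate 2 of every group and 36 without WT replicate 4, and the Dohh count ranged from 1 without replicate 2 to 29 without replicate 3. Aurkb, Ccna2, Ccnb2, Cdk6, Cenpa, Cenpf, E2f2, Kif11, Mcm3 and Top2a were called in both tables.

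The third question was whether loss of ODC and loss of DOHH changed the members alike. The KO minus WT change of the Dohh table was compared with that of the Odc table in 1 fit of 12924 genes, where 51 members were tested, and called at an adjusted p below 0.05 and a difference above 1. In TH2 cells 2 members differed (10.3% of all genes), Cdkn2c (-1.14 ± 0.32) and Ccnd1, for which no size is given because its WT TH2 libraries held at most 1 count in the Dohh and 3 counts in the Odc table. In TH17 cells 5 differed, all larger in Dohh (14.0% of all genes were called, 7.86% in that direction), namely Tyms (1.95), Cdc6 (1.22), E2f1 (1.21), Rrm2 (1.13) and Rrm1 (1.03). In TH1 cells 8 differed, all larger in Dohh (11.3% of all genes were called, 5.98% in that direction), namely Ccnd1 (2.08), Birc5 (1.57), Tyms (1.17), Cenpa (1.15), Aurka (1.10), Rrm2 (1.09), Mki67 (1.01) and Cdk1 (1.01).

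In Treg cells 38 of 51 members differed, all in the direction of a larger increase or smaller decrease in Dohh cells (17.5% of all genes were called, 8.19% in that direction). They included 21 of the 22 G2/M genes, all but Cdc20. The largest were Bub1 (2.01 ± 0.23, edgeR adjusted p = 4.5e-09), Cenpe (2.01 ± 0.26, edgeR adjusted p = 9.0e-08), a kinetochore motor, Rrm2 (1.90 ± 0.33, edgeR adjusted p = 1.8e-05), Cenpf (1.85 ± 0.24, edgeR adjusted p = 9.9e-08) and Ccna2 (1.78 ± 0.22, edgeR adjusted p = 2.6e-08). Members whose difference did not pass in Treg cells included Cdkn1b (0.15 ± 0.36), Rb1 (-0.00 ± 0.25) and Ccnd2 (0.09 ± 0.19), with negative log2 fold changes in both tables, and Mcm6 (0.14 ± 0.20). Leaving out 1 replicate number of a table at a time gave 34 to 40 in Treg cells. The TH2 count was 0 without Odc replicate 4 and 1 without Odc replicate 2, Dohh replicate 1 or Dohh replicate 2. The TH1 count was less steady, at 2 without Dohh replicate 2 and 15 without Dohh replicate 3, and the TH17 count was 1 without Odc replicate 4 and 8 without Odc replicate 3. Without Odc WT replicate 4 in all subsets the counts were 35 in Treg, 8 in TH1, 2 in TH17 and 1 in TH2 cells. The myeloid markers summed to 339 to 4764 CPM in Dohh KO Treg and 92.8 to 747 CPM in Odc KO Treg libraries, against 15.2 to 34.9 CPM in WT Treg libraries of both tables. CD8 T and NK cell markers summed to 175 to 342 and 151 to 232 CPM in the same KO groups. In Dohh Treg cells Cd8a had 1463, 2390 and 3124 counts in KO and 148, 44 and 96 counts in WT libraries. Cd8b1 had 103, 157 and 159 counts in KO and 208, 130 and 147 counts in WT libraries. The part of other cells in the difference between the tables was not tested.

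**Figure D5:**
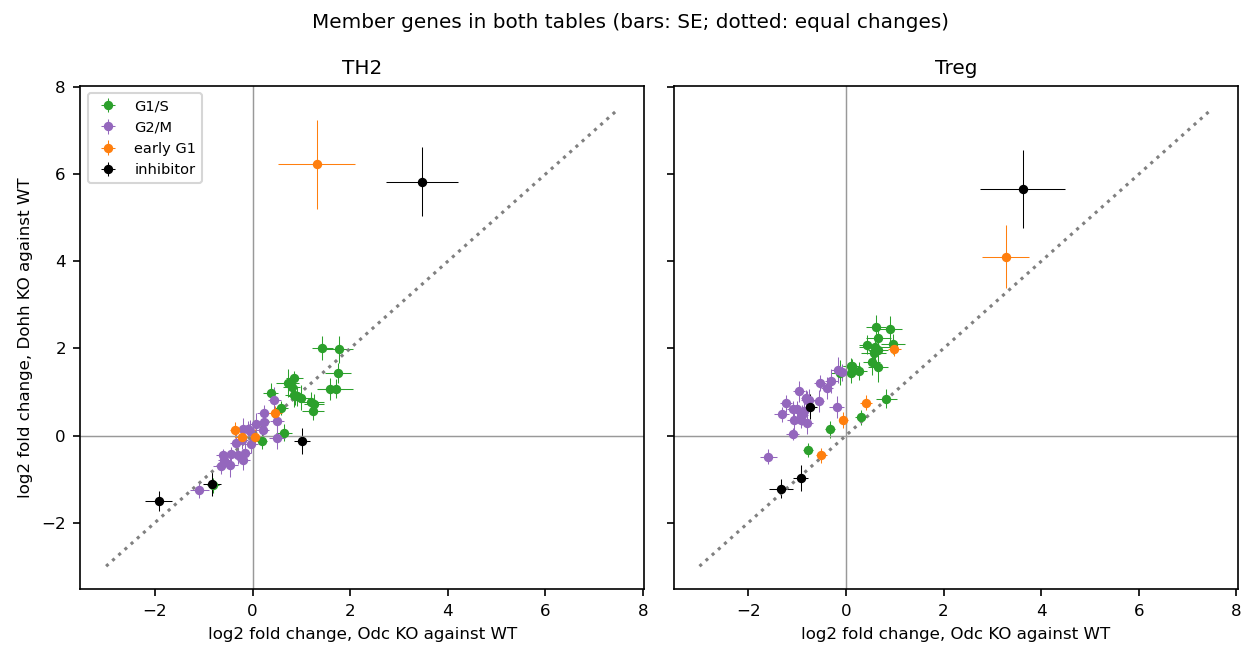
Log2 fold change of KO against WT in the Dohh table (y axis) against that in the Odc table (x axis) for the 51 members tested in both, in TH2 (left) and Treg cells (right), with bars for standard errors and a dotted line at equal changes. TH2 points lie near the line except Ccnd1, Cdkn2a and Cdkn2c, while Treg points of G1/S and G2/M genes lie above it.

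Other genes of the same pathways, from lists written with the members, gave the following counts. Of 35 other G1/S genes, 16, 14, 2 and 3 were called higher in Odc TH1, TH2, TH17 and Treg cells, where 10.2%, 11.5%, 8.35% and 13.9% of all genes were, so that the share of the list was below that of all genes in Odc TH17 and Treg cells (5.71% and 8.57%). In the same Dohh subsets 19, 10, 26 and 27 were called higher (14.8%, 14.3%, 17.3% and 17.5% of all genes), and 0 were called lower in any comparison. Dut (mean log2 fold change over the 8 comparisons of 1.56), which removes dUTP, and Fen1 (1.45), the flap nuclease of lagging strands, were among the 3 with the highest means. Prim2 (-0.13), a primase subunit, Ticrr (0.02), a factor of origin firing, and Wdr76 (0.23) had the lowest. Of 40 other G2/M genes, 11 were called lower in Odc Treg (10.1% of all genes) and 2 in Odc TH2 cells (13.6% of all genes), and 9, 4 and 8 higher in Dohh TH1, TH17 and Treg cells (14.8%, 17.3% and 17.5% of all genes), with 0 called in Odc TH1, Odc TH17 and Dohh TH2 cells. Cks1b (0.99), a CDK cofactor, Spc25 (0.81), a kinetochore subunit, and Pkmyt1 (0.73), a kinase that inhibits CDK1, had the highest means, and Hjurp (-0.82), the loader of CENP-A, Anln (-0.67), a scaffold of the cleavage ring, and Aspm (-0.62), a spindle pole protein, the lowest.

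Of the 7 other inhibitors and pocket proteins, Cdkn2b (p15), the neighbour of Cdkn2a, was called higher in all 8 comparisons. It was at least 12.7-fold higher in Dohh Treg cells against the floor of 3 counts per library, and had 0, 3 and 3 counts in WT and 7, 75 and 40 counts in KO libraries of Dohh TH2 cells. Cdkn1c (p57) was called lower in 3 and Cdkn1a (p21) in 1, while Cdkn2d, Cdkn3, Rbl1 and Rbl2 were called in none. Of the 10 other E2F and related factors, Mybl2 (B-MYB) was called higher in 6 comparisons, Tfdp1, the usual dimer partner of E2F factors, higher in 3, E2f6 and E2f7 higher in 2 each and E2f3 higher in 1. Tfdp2, the second dimer partner, was called lower in 5 and was negative in all 8. E2f4, E2f5, Lin9 and Lin54 were called in none.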

How the data were processed

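The authors deposited gene-level counts of TruSeq stranded mRNA libraries sequenced on a HiSeq 3000, in 1 table for the Odc and 1 for the Dohh mice. The submitters' processing notes name STAR, featureCounts, deepTools, DESeq2 and build mm10. The annotation release and the strand setting of the counting are not given in the sources used here, and exon overlaps are given where they exceed 10%. Of 47937 genes listed, 47224 were matched to a symbol. Counts were fitted per table with edgeR 4.0.16 (R 4.3.3): filterByExpr over the 8 groups left 13839 (Odc) and 13897 (Dohh) genes, TMM scaled the libraries, and robust quasi-likelihood tests compared KO with WT in each subset, subsets within genotype and their interaction, with Benjamini-Hochberg adjustment over all genes tested. Effects of the tables were compared in 1 fit of 12924 genes with a term for each group. Log2 CPM used a prior count of 0.5. Members and lists were chosen with earlier results of these data known. Values in every library are given for the up to 3 members of each role with the largest mean absolute log2 fold change over the 8 comparisons, plus Mki67, Cdk1, Mcm2 and the cyclins (27 genes), and any member may be named. Of the other G1/S and G2/M genes, the 3 highest and 3 lowest means are named, except for an item that is not reported here. Markers of other cells were summed as CPM.

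On simulated counts with known changes in Odc TH1 cells, 98% of 4-fold and 99% of 8-fold changes were recovered, and 92% and 99% in Dohh TH1 cells. Only 100 well-counted genes were changed at each fold. The recovery therefore does not cover genes with few counts, changes near the fold threshold or data where many genes change. No replicate block was used, since the labels name no animal or day behind a replicate number. Across subsets of 1 genotype, 44 of 45 Odc and 23 of 36 Dohh pairs with the same number did deviate together (correlation above 0.1). The tests between subsets and of the interaction do not take this into account. Alternatives were DESeq2 1.42.0, RLE size factors, no low-count filter, the adjusted p alone, a test against the fold threshold, fits of the groups compared alone, a replicate block, a prior count of 2, medians over members in the phase balance, each library left out in turn and, chosen after seeing the data, the Odc table without WT replicate 4 in all subsets. Promoter windows came from RefSeq tables of GRCm38.p6. Figures were drawn with matplotlib 3.10.9 in Python 3.11.15.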

Additional observations from a re-analysis of the deposited data

Results flagged for a closer look

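In the Odc table, 77 sets of 4 libraries were tested for a library far from the other 3, and 16 held one. A single such test flags a library in about 1 in 20 sets by chance. The sets share libraries and genes, so 1 library can be flagged in many, and 16 of 77 cannot be set against that rate. Of the 16 flagged sets, 12 concerned WT replicate 4. In WT TH17 cells it had the lowest phase balance (0.36) and Cdkn1b level (143 CPM) and the highest G1/S mean (6.99 log2 CPM), Mcm2 (227 CPM), Cdc6 (71.9 CPM), Rrm2 (372 CPM) and Tyms (59.5 CPM). In WT Treg cells its Cdkn1b was lowest (141 CPM) and its Cdc6 highest (72.4 CPM). In WT TH1 cells its G1/S mean (6.26) and Cdkn2a (5.03 CPM) were highest, as was its G1/S mean in WT TH2 cells (6.23). KO replicate 1 of TH1 cells had the lowest G1/S mean (6.50) and the highest Cdkn1b (107 CPM) of its group, and KO replicate 3 of Treg cells the highest Ccnd1 (10.1 CPM) and Tyms (101 CPM).

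Changes that differed between subsets were found by the interaction test for 31 members of Odc and 15 of Dohh cells. Changes that differed between the Odc and Dohh tables were found for 8 members in TH1, 2 in TH2, 5 in TH17 and 38 in Treg cells. Groups of 3 libraries were not tested for a library apart.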

How the results depend on the processing

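Of 5513 values of single genes under an alternative, 5271 kept direction and call, 143 lost and 99 gained a call, and 0 reversed. Of 293 counts and phase shifts, 242 stayed within 1.5 times or the replicate spread. Of 115 counts of all genes called in KO against WT cells under an alternative, 16 moved by more than 1.5 times. The shares of all genes called under single alternatives are not given here. With the adjusted p alone, 38, 36, 27 and 40 members passed in Odc TH1, TH2, TH17 and Treg cells and 39, 30, 28 and 42 in Dohh cells. Between subsets it gave 48 (Odc WT), 22 (Odc KO), 18 (Dohh WT) and 32 (Dohh KO). By the same rule the comparison of Odc with Dohh effects gave 18 in TH1 and 15 in TH17 cells. The share of all genes passing by the adjusted p alone is not given here, so these counts cannot be set against it. A test against the fold threshold (glmTreat) gave 3, 4, 1 and 4 members in Odc TH1, TH2, TH17 and Treg cells and 11, 5 and 11 in Dohh TH1, TH2 and TH17 cells. With no low-count filter, 5 members differed between tables in TH1 cells. Without WT replicate 4 in all subsets, Odc TH17 and Treg cells had 12 and 17, and 2 and 1 members differed between tables in TH17 and TH2 cells. Medians over members gave phase shifts of -0.58 and -0.49 in Odc TH1 and TH2 cells and of 0.20, -0.32, -0.45 and -0.0038 in Dohh TH1, TH2, TH17 and Treg cells, and the cause of the reversal in Dohh TH1 cells was not tested.

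With 1 library or replicate number left out at a time, members called ranged from 12 to 18, 11 to 14, 2 to 12 and 8 to 17 in Odc TH1, TH2, TH17 and Treg cells and from 14 to 27, 11 to 16, 17 to 20 and 24 to 27 in Dohh cells. Between subsets they ranged from 8 to 10 (Odc WT), 4 to 5 (Odc KO), 7 to 8 (Dohh WT) and 9 to 22 (Dohh KO), and in the interaction from 12 to 31 (Odc) and 1 to 29 (Dohh). Between tables they ranged from 2 to 15 in TH1, 0 to 2 in TH2, 1 to 8 in TH17 and 34 to 40 in Treg cells. The shares of all genes called in these fits are not given here, so the ranges cannot be set against them. Phase shifts ranged from -1.26 to -0.97, -1.19 to -1.02, -0.78 to -0.60 and -1.44 to -1.14 in Odc TH1, TH2, TH17 and Treg cells and from -0.64 to -0.44, -1.05 to -0.98, -1.004 to -0.87 and -0.92 to -0.77 in Dohh cells.

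Of KO and WT libraries with the same replicate number, 3 of 15 Odc pairs and 1 of 12 Dohh pairs had deviations from their group means that correlated above 0.1 (medians 0.02 and -0.01). Across subsets of 1 genotype, 44 of 45 Odc pairs with the same number did (median 0.21, against -0.08 for other numbers) and 23 of 36 Dohh pairs (median 0.15, against -0.09). This is a hint from the data, not the design, and the tests between subsets and of the interaction do not take it into account. With the replicate number as a block, 14, 12, 3 and 12 members were called in Odc TH1, TH2, TH17 and Treg cells and 20, 14, 18 and 26 in Dohh cells, and with the number within genotype as a block, 9 and 4 members differed between Odc WT and KO subsets, 9 and 10 between Dohh WT and KO subsets, and 44 (Odc) and 14 (Dohh) had an interaction. Depth limits Ccnd1 and Cdkn2a, with few counts in WT libraries.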
